A study of Mus musculus with 6 samples.

Results

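The genes of the granin family and of the enzymes that cut their peptides were followed in embryonic mouse brain, 10 genes in all: Vgf, Chga, Chgb, Scg2, Scg3, Scg5, Pcsk1, Pcsk2, Cpe and Pcsk1n. They were taken by gene name from 55359 annotated genes, and all 10 were among the 18893 genes whose mean reached 1 TPM (a level per transcript length, as a share of the library). The set was chosen by family and pathway, but with the difference between the groups already known, Vgf being one of the genes that had passed the test. The differences below are therefore a description of these libraries and no independent evidence, and no p-value of Vgf is given.

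Whole brains were taken at E18.5, shortly before birth, from wild-type (WT) mice and from mice carrying PME-1 S156A. PME-1 is the product of Ppme1 and removes a methyl group from protein phosphatase 2A, and S156A changes the serine of its active site to alanine. Each group had 3 libraries, and each library was made from TRIzol RNA of 3 pooled brains, so the error given is that between pools and not between single embryos. The labels name no treatment, with strain, sex and zygosity not given in the sources used here. Ppme1 itself stood at 87.1 ± 11.5 TPM in WT against 81.4 ± 8.37 TPM in S156A (SD, n = 3 each), a log2 difference of -0.09 (SE 0.14). A substitution that leaves the transcript in place is not checked by its level.

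Granins are acidic, soluble proteins that pack together with prohormones in the trans-Golgi network and are stored in dense-core vesicles, the organelles from which neurons and endocrine cells release peptides on stimulation. Inside the vesicle, prohormone convertases cut precursors at pairs of basic residues, carboxypeptidase E trims the basic residues that are left, and an amidating enzyme finishes many of the peptides. Granins are cargo as well as packing material, since VGF, chromogranins and secretogranin II are themselves cut into peptides. In the brain many, but not all, of these genes are used as markers of neurons with a regulated secretory pathway, and several respond to activity, neurotrophins and cyclic AMP.

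The promoters of these genes are shown first, because cyclic AMP response elements and sites of the repressor REST are textbook features of the family. RefSeq windows of 300 bases on GRCm38.p6, from 250 bases before to 50 after the annotated start, were matched by symbol for 8 of the 10 genes. Vgf and Cpe were not matched. Capitals mark each match, on either strand, to the full cyclic AMP response element TGACGTCA, to its core TGACG, which overlaps the full element, to the parts TCAGCACC and GGACAGC of the REST element, or to TATAAA. The first 3 windows are those that held the full element, the fourth is from Chga, the fifth from Scg3, and the sixth, from Pcsk1n, held none of the motifs. They lie at chr2:132781392-132781691 (plus strand), chr1:79439977-79440276 (minus strand), chr13:75089607-75089906 (plus strand), chr12:102554691-102554990 (plus strand), chr9:75684007-75684306 (minus strand) and chrX:7919572-7919871 (plus strand), each written 5′ to 3′ along its gene.
Chgb: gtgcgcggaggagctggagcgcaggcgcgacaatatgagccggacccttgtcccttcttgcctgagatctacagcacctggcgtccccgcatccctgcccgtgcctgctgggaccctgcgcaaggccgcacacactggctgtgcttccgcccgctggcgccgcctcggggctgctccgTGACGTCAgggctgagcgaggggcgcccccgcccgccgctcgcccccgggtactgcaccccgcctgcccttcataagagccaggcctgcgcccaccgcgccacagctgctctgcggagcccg
Scg2: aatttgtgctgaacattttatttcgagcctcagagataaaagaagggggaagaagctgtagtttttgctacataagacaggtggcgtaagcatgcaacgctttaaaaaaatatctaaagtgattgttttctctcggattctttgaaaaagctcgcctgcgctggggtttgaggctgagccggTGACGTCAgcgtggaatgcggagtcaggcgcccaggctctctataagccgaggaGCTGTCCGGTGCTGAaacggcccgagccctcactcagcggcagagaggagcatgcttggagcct
Pcsk1: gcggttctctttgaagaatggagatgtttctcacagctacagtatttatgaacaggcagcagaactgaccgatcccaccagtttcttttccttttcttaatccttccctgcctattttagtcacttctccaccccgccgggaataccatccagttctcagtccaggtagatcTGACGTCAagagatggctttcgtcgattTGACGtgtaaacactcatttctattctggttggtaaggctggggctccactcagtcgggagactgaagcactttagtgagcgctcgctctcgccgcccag
Chga: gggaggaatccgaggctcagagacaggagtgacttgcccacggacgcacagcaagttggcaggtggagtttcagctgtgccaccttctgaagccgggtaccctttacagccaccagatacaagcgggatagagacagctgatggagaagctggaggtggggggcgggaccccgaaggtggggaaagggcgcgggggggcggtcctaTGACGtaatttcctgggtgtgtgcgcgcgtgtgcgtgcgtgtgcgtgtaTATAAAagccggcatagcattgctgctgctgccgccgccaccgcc
Scg3: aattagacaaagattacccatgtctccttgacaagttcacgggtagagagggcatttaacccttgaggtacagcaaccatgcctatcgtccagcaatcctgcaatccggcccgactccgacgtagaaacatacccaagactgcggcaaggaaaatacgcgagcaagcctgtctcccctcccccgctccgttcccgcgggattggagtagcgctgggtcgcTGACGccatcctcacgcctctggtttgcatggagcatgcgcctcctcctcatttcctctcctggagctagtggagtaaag
Pcsk1n: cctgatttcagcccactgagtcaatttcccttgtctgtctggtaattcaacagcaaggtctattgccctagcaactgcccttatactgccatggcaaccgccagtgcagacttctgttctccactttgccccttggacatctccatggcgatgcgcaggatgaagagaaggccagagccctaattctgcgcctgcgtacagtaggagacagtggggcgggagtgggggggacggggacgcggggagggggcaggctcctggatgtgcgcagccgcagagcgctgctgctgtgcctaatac

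The full element TGACGTCA was found in 3 of 8 windows, those of Chgb, Scg2 and Pcsk1, against 1.79% of all 32851 RefSeq windows. Its first base lay at -72 in Chgb, -68 in Scg2 and -78 in Pcsk1, counted from the start site, so the 3 matches lay at similar distances. The core TGACG was in 7 of 8 windows, against 20.8% of all windows. In Chga it began at -44 and in Scg3 it began at -30. The window of Scg2 also held both parts of the REST element, GGACAGC from -14 and TCAGCACC from -7 on the opposite strand. They lay across the start site with no base between them, and whether they form a REST element at this spacing was not tested. These parts were in 6.56% and 1.65% of all windows, and in no other window of the 8. TATAAA was found in Chga alone, from +6, against 13.6% of all windows. The windows were GC-rich in Pcsk2 (76.3% G or C, 36 CpG) and Chgb (72.7%, 31 CpG) and less so in Pcsk1 (49.3%, 13 CpG), where the median of all windows was 52.7% with 7 CpG. All 8 windows held more CpG than that median (9 to 36), and TGACG itself contains a CpG. The shares of all windows given above are not matched for this. A match gives letters and not binding, and binding was not measured.

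**Figure D1:**
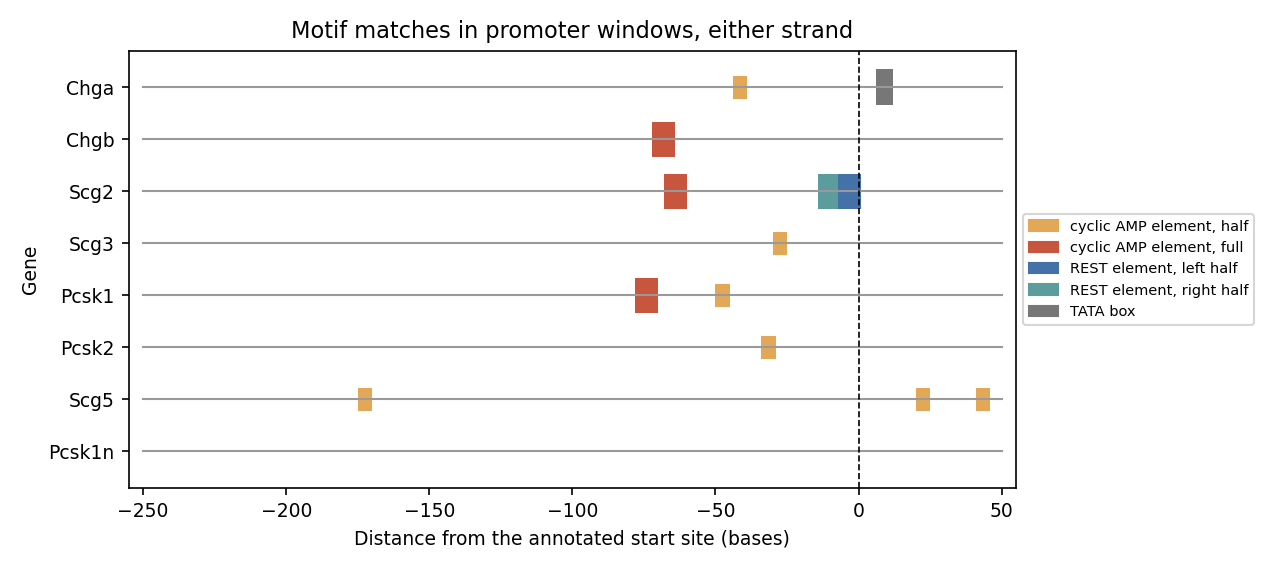
Motif matches in the promoter windows of the 8 matched genes, drawn by distance from the annotated start site in bases, with 1 line per gene and 1 colour per motif. The full cyclic AMP element sat between -78 and -68 in Pcsk1, Chgb and Scg2, and Pcsk1n had no match.

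Among the granins, VGF transcripts differed most between the groups. VGF is a nerve growth factor-inducible precursor of several secreted peptides. The 3 WT libraries gave 72.5, 79.7 and 62.9 TPM for Vgf, and the 3 S156A libraries gave 20.8, 20.9 and 28.1 TPM. All S156A libraries lay below all WT libraries, with a wide gap between the groups. The S156A mean was 32.4% of the WT mean (71.7 ± 8.4 against 23.3 ± 4.16 TPM, SD, n = 3 each), a log2 difference of -1.59 (SE 0.16). The gene lies on chromosome 5, 137055246 to 137062205, plus strand, in the coordinates of the deposited files (GRCm39 inferred), as do the positions given for the genes below.

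Scg2 encodes secretogranin II, the precursor of secretoneurin (chromosome 1, 79412386 to 79417837, minus strand). It gave 146, 137 and 100 TPM in WT against 62.7, 82.2 and 81.4 TPM in S156A. Again no S156A library reached the lowest WT library, and the log2 difference was -0.75 (SE 0.18), the S156A mean being 59% of WT. Chga, for chromogranin A, the precursor of pancreastatin and catestatin, gave 140, 141 and 119 TPM in WT against 83, 95 and 102 TPM in S156A (chromosome 12, 102521228 to 102531287, plus strand). The groups stood apart by less than for Vgf, at a log2 difference of -0.51 (SE 0.12).

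The other granins did not separate the groups. Chgb, for chromogranin B (chromosome 2, 132623198 to 132636999, plus strand), gave 86.3, 85.4 and 64.1 TPM in WT against 50.7, 72.4 and 74.5 TPM in S156A. WT replicate 3 lay among the S156A libraries, and the log2 difference was -0.26 (SE 0.19). Scg3, for secretogranin III, which binds chromogranin A and anchors granin aggregates to the vesicle membrane, lies on chromosome 9, 75550471 to 75591338, minus strand. Its values were 143, 137 and 117 TPM in WT against 101, 155 and 147 TPM in S156A. The S156A libraries held both the lowest and the highest values of Scg3, and the means of 133 and 134 TPM gave a log2 difference of 0.00 (SE 0.18).

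The convertases were the least abundant genes of the set in WT. Pcsk2, for prohormone convertase 2 (chromosome 2, 143388076 to 143658205, plus strand), gave 34.4, 32.9 and 27.5 TPM in WT against 21.1, 29.5 and 26.6 TPM in S156A, with a log2 difference of -0.29 (SE 0.16). Only S156A replicate 2 exceeded the lowest WT library. Pcsk1, for prohormone convertase 1 (chromosome 13, 75237945 to 75282980, plus strand), gave 2.65, 2.84 and 2.04 TPM in WT against 2.16, 1.42 and 1.2 TPM in S156A. At these levels the log2(TPM + 1) difference of -0.45 (SE 0.27) understates the change, and the groups overlapped through 1 library of each.

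Transcripts of the convertases' partner proteins differed in whether the groups overlapped. Scg5 encodes 7B2, the chaperone that prohormone convertase 2 needs to become active (chromosome 2, 113606707 to 113659466, minus strand). It gave 159.1, 158.3 and 115.1 TPM in WT against 96.2, 155.8 and 146.8 TPM in S156A, overlapping widely at a log2 difference of -0.13 (SE 0.22). Pcsk1n encodes proSAAS, which inhibits prohormone convertase 1 and is itself a granin-like precursor (chromosome X, 7786061 to 7790649, plus strand). Its 356, 344 and 279 TPM in WT lay above the 183, 195 and 276 TPM in S156A, but S156A replicate 3 came within a few TPM of WT replicate 3. The log2 difference of Pcsk1n was -0.59 (SE 0.18). Cpe, for carboxypeptidase E (chromosome 8, 65045576 to 65146088, minus strand), gave 837, 801 and 648 TPM in WT against 526, 742 and 808 TPM in S156A, which overlapped at a log2 difference of -0.15 (SE 0.19).

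**Figure D2:**
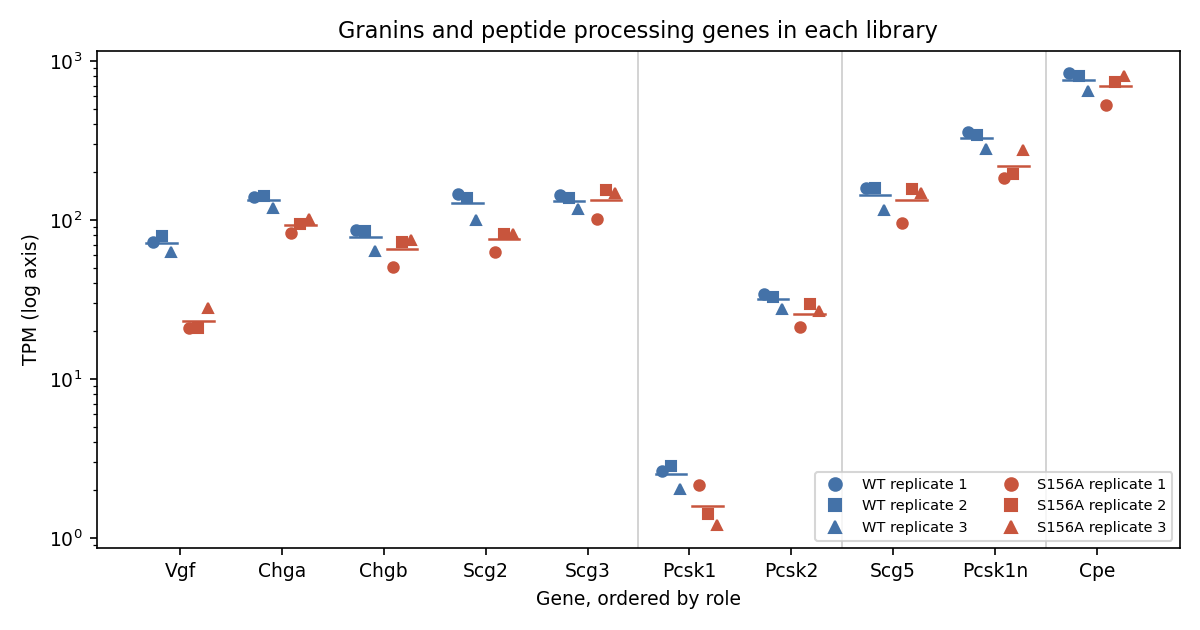
TPM of each gene in each library on a log axis, genes ordered by role, 1 point per library. Vgf shows the widest gap between the groups, from 62.9 TPM in the lowest WT library to 28.1 TPM in the highest S156A library, while Scg3, Scg5 and Cpe overlap.

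In sum over the 10 genes, S156A lay below WT with no overlap in 4 (Vgf, Scg2, Chga and Pcsk1n) and overlapped WT in 6. Of all 18893 tested genes, 7.05% lay below WT in that way, and since the set was chosen with this contrast known, nothing is read from the difference in shares. In limma's fit across all genes 1 of the 10, Vgf, was called lower at an adjusted p under 0.05, which is the result it was chosen with and no independent evidence. How that call depends on the libraries and the processing is given only as a description. Of all genes, 0.0741% were called lower and 0.159% in either direction. With 1 library left out, Vgf was called only when that library was WT replicate 3, and not without any of the other 5, while its log2 difference lay between -1.73 and -1.51. The other 9 were not called, with adjusted p-values from limma between 0.165 (Chga) and 1 (Scg3). Of the 10 log2 differences 9 were below 0, against 38.3% of all tested genes, and the median was -0.37 (-0.29 without Vgf) against 0.09 for all genes.

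The order of levels in WT ran from Cpe through Pcsk1n to a group of 4 genes whose libraries overlapped (Scg5, Chga, Scg3 and Scg2), then Chgb and Vgf, which overlapped each other, then Pcsk2 and last Pcsk1. In S156A the order was Cpe, Pcsk1n, Scg3, Scg5, Chga, Scg2, Chgb, Pcsk2, Vgf and Pcsk1. Vgf thus stood well above Pcsk2 in every WT library and overlapped it in S156A, where Pcsk2 gave 21.1 to 29.5 TPM and Vgf 20.8 to 28.1 TPM. The place of Cpe is less certain than the others, because its deposited coverage was 0.092 to 0.121 times its FPKM (fragments scaled to length and depth), where the other genes had ratios of 1.871 to 4.14. Pcsk1 in S156A replicate 1, the value through which its groups overlap, also had a ratio of 1.929, where Chgb and Pcsk1n had 3.871 in that library, so this low level of 2.16 TPM is uncertain. The ratio of Cpe followed library depth, so it touches its level against other genes more than its difference between libraries.

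Ratios within a library do not depend on the share that tissues without these transcripts take of it. Vgf over Scg3 was 0.506, 0.582 and 0.537 in WT and 0.205, 0.135 and 0.19 in S156A. Scg2 over Scg3 was 1.02, 0.998 and 0.854 in WT and 0.619, 0.532 and 0.552 in S156A. Both ratios were lower in every S156A library than in every WT library, by more than the spread within either group. The ratio of Chga to Chgb overlapped (1.71 ± 0.127 against 1.44 ± 0.174, SD, n = 3 each), and so did that of the chaperone gene Scg5 to its convertase Pcsk2 (4.54 ± 0.325 against 5.12 ± 0.496). Pcsk1n over Scg5 was lower in S156A, at 2.28 ± 0.13 in WT and 1.68 ± 0.369 in S156A, and Cpe over Pcsk2 was higher, at 24.1 ± 0.459 and 26.9 ± 3.06, with S156A replicate 3 far above the other libraries.

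The make-up of the granin transcripts differed accordingly. The 5 granins (Vgf, Chga, Chgb, Scg2 and Scg3) summed to 544 ± 70 TPM in WT against 392 ± 63.9 TPM in S156A. The share of Vgf in this sum was 13.2 ± 0.773% in WT and 5.98 ± 0.911% in S156A, and that of Scg2 was 23.4 ± 1.65% and 19.3 ± 0.438%. Scg3 held a larger share in S156A, at 24.4 ± 0.85% in WT and 34.1 ± 2.28% in S156A (SD, n = 3 for each value). Chga held nearly the same share in both groups, 24.6 ± 0.982% and 24 ± 1.91%, and Chgb had 14.4 ± 0.495% in WT and 16.7 ± 0.689% in S156A. Shares of one sum are tied together, so a lower share of one gene raises the others.

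**Figure D3:**
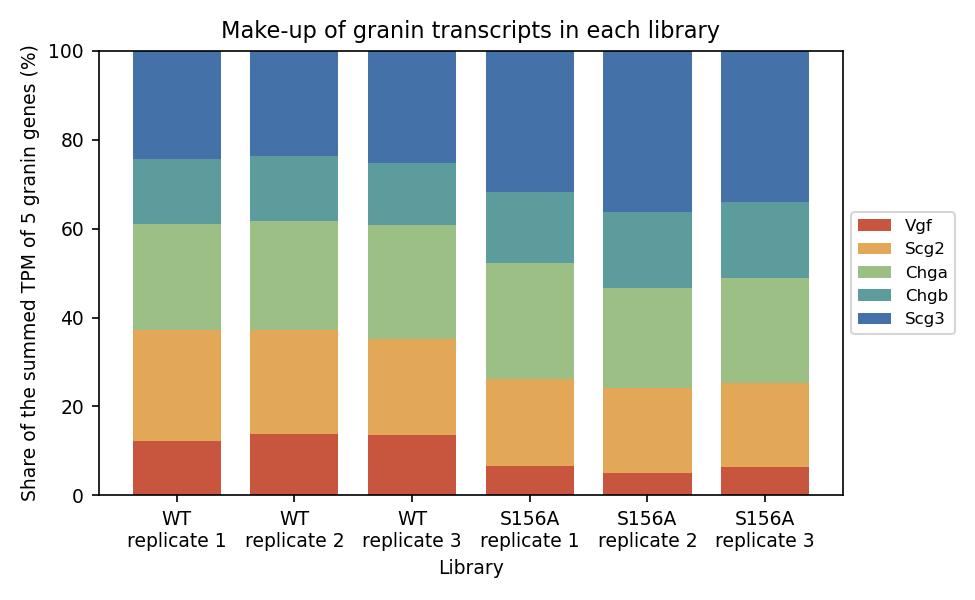
Share of each of 5 granin genes in their summed TPM, in percent, with 1 stacked bar per library. Vgf takes 12.3% to 13.7% of the sum in WT and 4.92% to 6.52% in S156A, and Scg3 takes a larger share in every S156A library than in any WT library.

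The libraries within a group were not alike. WT replicate 3 was the lowest WT library for 10 of 10 genes, and S156A replicate 1 was the lowest S156A library for 9 of 10, Pcsk1 being the exception. With each group's mean taken out, the correlation between genes over the 6 libraries had a median of 0.86 over 45 pairs (range -0.51 to 0.99). Without Pcsk1, whose median with the other genes was -0.31, all 36 pairs lay between 0.43 and 0.99. These are descriptions over points that share library and depth. The same libraries held the most skeletal muscle transcripts: 10 muscle markers summed to 14.5, 956 and 7560 TPM in WT replicates 1 to 3 and to 8075, 67.6 and 52.6 TPM in S156A replicates 1 to 3, and Acta1, skeletal muscle actin, reached 2472 TPM in WT replicate 3 and 2611 TPM in S156A replicate 1. The part of the muscle RNA in these levels was not tested. When both libraries were left out, 8 of the 10 genes (all but Scg3 and Cpe) lay below WT with no overlap between 2 libraries a group, where 17.7% of all genes did so.

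Markers of cell types moved with the groups as well. The 12 pan-neuronal markers summed to 6140 to 8369 TPM in WT against 4607 to 6114 TPM in S156A. Tubb3, Stmn2, Gap43 and Uchl1 made up 76.8% to 84% of that sum. Of the 12, 7 lay below WT with no overlap, where 7.05% of all genes did, and 5 overlapped, Tubb3 at a log2 difference of -0.39, Elavl3 at -0.08, Elavl4 at -0.01, and Map2 and Dcx above 0 at 0.32 and 0.34. The 8 monoaminergic markers all lay below WT, and summed to 53.3 to 82 TPM in WT against 15.8 to 19.9 TPM in S156A. The 13 hypothalamic neuroendocrine markers summed to 84 to 107 TPM and 45.8 to 79.9 TPM. None of the neuronal, monoaminergic and hypothalamic markers was called by limma, although 7 of 12, 8 of 8 and 4 of 11 tested had an unadjusted p under 0.05 (13.9% of all genes did). In bulk tissue, fewer cells of a type and less RNA per cell cannot be told apart.

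The sums of pituitary, microglia, astrocyte and progenitor markers were higher in S156A. Anterior pituitary markers, whose endocrine cells are rich in granins, summed to 11.7 to 128 TPM in WT against 151 to 343 TPM in S156A. Growth hormone (Gh) gave 0, 1.69 and 97.1 TPM in WT against 310, 166 and 130 TPM in S156A, while Fshb was listed at 0 in all libraries. Gh made up most of the pituitary sum in each S156A library. Limma called none of the 6 tested pituitary rows, where Lhb is counted under separate identifiers. Of these rows 4 had an unadjusted p under 0.05, where 13.9% of all genes did. Microglia markers summed to 148 to 245 TPM in WT against 459 to 557 TPM in S156A, with 4 of 11 called higher (0.0847% of all genes were). Astrocyte markers summed to 463 to 519 TPM and 532 to 710 TPM, with 1 of 9, Gfap, called higher. Gfap, named after its values were seen, gave 20.1, 23.8 and 19.7 TPM in WT against 70.9, 121 and 136 TPM in S156A. That gap is wider than the gap between the astrocyte sums. Of the 9 astrocyte markers, 4 lay above WT without overlap, 1 (Aldoc) lay below, and 3 had a log2 difference below 0. Progenitor markers summed to 532 to 783 TPM and 786 to 932 TPM, with none of 7 called (3 had an unadjusted p under 0.05). The part of these cell types in the granin levels was not tested.

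Set against the neuronal markers of the same library, the genes of the set went in different directions. Per 1000 TPM of summed pan-neuronal markers, a scaling added after the data were seen, Vgf stood at 8.67, 10.3 and 10.2 in WT and 4.51, 3.47 and 4.59 in S156A. Scg2 stood at 17.5, 17.8 and 16.3 in WT and 13.6, 13.6 and 13.3 in S156A. These 2 genes stayed below WT in every library, at 42.9% and 78.6% of the WT mean, where 2.18% of all genes did so. Scg3, Scg5 and Cpe lay above WT without overlap on this scale, at 133%, 121% and 119% of the WT mean, as did 37% of all genes. The other 5 overlapped, Chga at 92.5%, Chgb at 111%, Pcsk2 at 107%, Pcsk1 at 88.4% and Pcsk1n at 88.5%. The scaling moved the median log2 difference of all genes from 0.09 to 0.45 and that of the 10 genes from -0.37 to -0.01, a difference between the set and all genes of -0.46 on both scales. All genes of a library are divided by the same factor, so both medians move alike. The unchanged difference was thus nearly fixed in advance, and nothing is read from it.

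**Figure D4:**
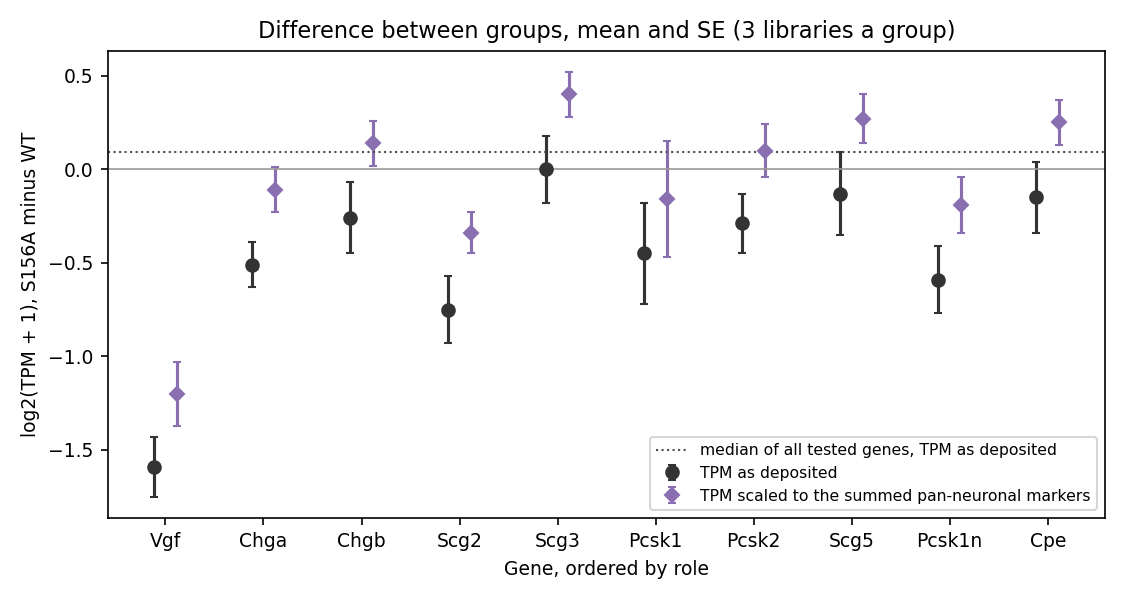
Log2 difference of each gene, S156A minus WT, with its SE from limma (3 libraries a group), for TPM as deposited and for TPM scaled to the summed pan-neuronal markers. Vgf lies lowest on both scales (-1.59 and -1.20), while Chgb, Scg5, Pcsk2 and Cpe lie below 0 on the first scale and above 0 on the second.

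Proteins that build dense-core vesicles and release them form the next step of the pathway. Of 24 such genes that were not in the set, 22 were tested, 17 had a log2 difference below 0, and the median was -0.28. Limma called none of them, and 6 had an unadjusted p under 0.05, as did 13.9% of all tested genes. Without overlap, 6 lay below WT (7.05% of all genes did) and 1 above (13.7% of all genes did). The 1 above, Arfip1, which was named after its values were seen, gave 14.1, 14.7 and 22.2 TPM in WT against 25.5, 26.5 and 27.7 TPM in S156A, and is among the 6 of unadjusted p under 0.05. Ptprn encodes IA-2, a transmembrane protein of the vesicle that is needed for normal vesicle number. It gave 87.5, 76.7 and 63.7 TPM in WT against 29.3, 36.3 and 33 TPM in S156A, apart in every library, and differed by -1.18 on the log2 scale (SE 0.15, limma adjusted p = 0.0507). Resp18, a luminal protein related to IA-2, gave 116, 121 and 87.5 TPM and 33.8, 44.1 and 57.9 TPM (log2 difference -1.26, limma adjusted p = 0.081). Doc2b, a calcium sensor of release, and Rab27b, a vesicle GTPase, had log2 differences of -0.83 and -0.76, and both were apart. Not every gene of the step shared this: Ptprn2, the paralog of Ptprn, overlapped (-0.45, SE 0.26), as did the priming factor genes Cadps (-0.40, SE 0.17) and Cadps2 (0.33, SE 0.40).

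The other enzymes of peptide processing had a median of 0.18 over 14 tested genes, against 0.09 for all genes. Limma called none, and 2 had an unadjusted p under 0.05 (13.9% of all genes did). Without overlap, 3 lay below WT (7.05% of all genes did) and 1 above (13.7% of all genes did). Pam, for the enzyme that amidates peptides, gave 42.4 ± 12.6 TPM in WT against 54 ± 9.44 TPM in S156A (SD, n = 3 each), a log2 difference of 0.37 (SE 0.25). Cyb561, for the cytochrome that supplies electrons for amidation, was lower in every S156A library, at 35.8 ± 3.44 and 25.2 ± 0.8 TPM. Atp7a, for the transporter that delivers the copper that amidation needs, was higher in every S156A library (5.53 ± 1.55 and 8.53 ± 2.16 TPM). Furin, for the convertase of the constitutive pathway, had the same mean of 26.2 TPM in both groups. Among the convertase genes outside the set, Pcsk4 had a log2 difference of -0.68 (SE 0.26) and Pcsk7 one of 0.25 (SE 0.14).

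Neuropeptide precursors, the cargo of the pathway, had a median of -0.33 over 25 tested of 29 genes. Limma called none, 7 had an unadjusted p under 0.05 (13.9% of all genes did), and 6 lay below WT without overlap (7.05% of all genes did). Sst, for somatostatin, the most abundant of the precursors named here, gave 298, 291 and 247 TPM in WT against 178, 174 and 233 TPM in S156A. Tac1, for the precursor of substance P, gave 66, 46.3 and 58.9 TPM and 27.9, 28.8 and 34 TPM, which is -0.88 in log2 (SE 0.16, limma adjusted p = 0.0938). The hypothalamic precursors that the naming rule gave were rare, with Oxt, for oxytocin, at 2.55 ± 0.452 TPM in WT against 0.304 ± 0.0814 TPM in S156A, and Hcrt, for orexin, at 2.49 ± 0.925 and 0.445 ± 0.336 TPM. Pomc, which pituitary cells also express and which was picked after its values were seen, overlapped at 15.5 ± 12.4 and 28 ± 7.69 TPM and lay above 0 at a log2 difference of 1.03 (SE 0.49).

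The list of peptide-cleaving ectoenzymes, which end peptide signals outside the cell, had a median of -0.14 over 10 genes. Not all of the 10 act mainly there. Limma called none, and none had an unadjusted p under 0.05. Prep, for prolyl endopeptidase, which is found mostly in the cytosol, was 20 ± 1.61 TPM in WT against 15.9 ± 1.31 TPM in S156A without overlap, while Ecel1 and Ece2 overlapped at log2 differences of -0.29 and -0.26, and Enpep overlapped at 0.64 (SE 0.38). Thop1, named after its values were seen, was higher without overlap, at 46.8 ± 3.84 TPM in WT against 50.2 ± 0.592 TPM in S156A, a small difference (log2 0.10, SE 0.11).

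Transcription factors of the neuroendocrine programme had a median of 0.48 over 15 genes, against 0.09 for all genes. Of the 15, 11 were above 0 and 4 below, where 38.3% of all tested genes were below. Limma called none, and 4 had an unadjusted p under 0.05, where 13.9% of all genes did. Without overlap, 4 lay above WT, where 13.7% of all genes did. Insm1, a zinc finger factor of neuroendocrine differentiation, gave 42.8 ± 3.99 TPM in WT against 69.5 ± 11.8 TPM in S156A (SD, n = 3 each), and Neurod1, also a differentiation factor, 26 ± 4.1 and 42.8 ± 6 TPM. St18, a relative of the myelin transcription factor genes, gave 2.26 ± 0.583 and 4.49 ± 0.865 TPM. Rest, for the repressor of many neuronal genes including granin genes, overlapped at 5.82, 4.48 and 10.3 TPM in WT against 11.2, 8.91 and 8.48 TPM in S156A, or 0.48 in log2 (SE 0.30, limma adjusted p = 0.513). Its 2 highest libraries, S156A replicate 1 and WT replicate 3, were those with the most muscle transcripts.

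**Figure D5:**
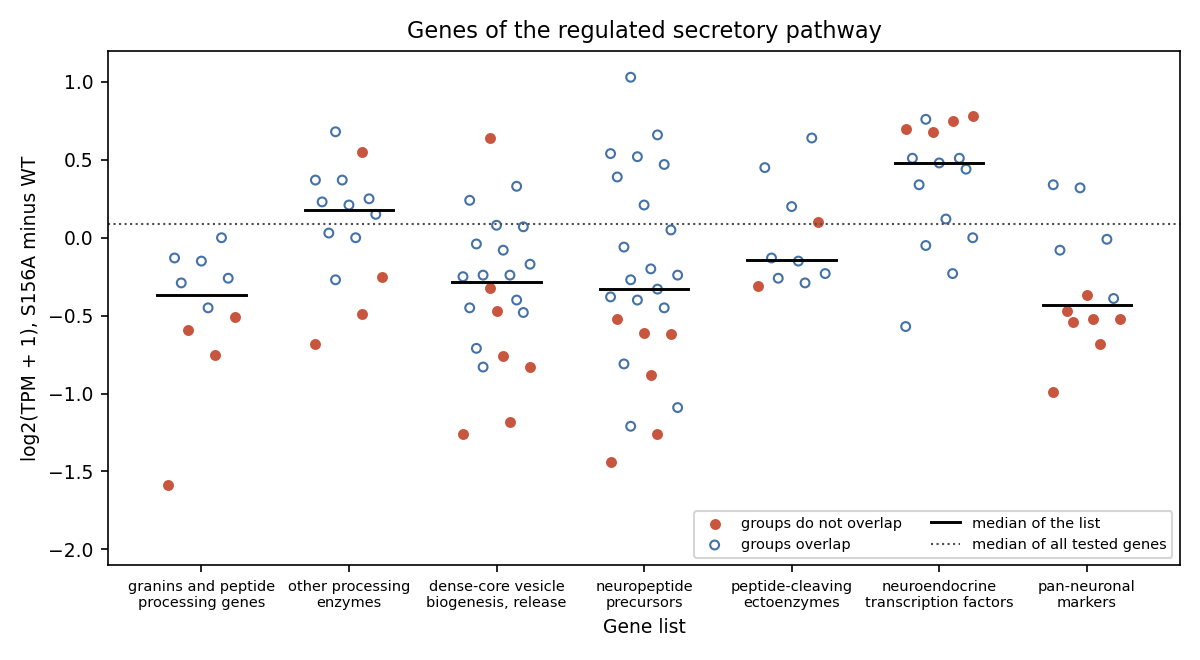
Log2 difference of each tested gene, S156A minus WT, by list, with 1 point per gene, the median of each list and a dotted line at the median of all tested genes (0.09). The set, the dense-core vesicle genes and the neuropeptide precursors have medians of -0.37, -0.28 and -0.33, and the transcription factors one of 0.48.

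The genes whose levels most resembled those of Vgf over the 6 libraries, among the 12169 other genes that had a mean of at least 5 TPM and a name that is not only an identifier, were Neurl1a (Pearson r = 0.995), Got2-ps1 (0.995), Tspan17 (0.994), Creg2 (0.990) and Dnm1 (0.989). Dnm1, for the dynamin of synaptic vesicle recycling, gave 200, 205 and 164 TPM in WT against 87.1, 97.7 and 103 TPM in S156A. Got2-ps1 is a pseudogene that can share reads with its parent gene, so its value is uncertain. With group means taken out, the mean of the 10 genes was most like Tubb2a, Pdyn, Tuba1a, Sec61a2 and Atp1b1 (r = 0.999 each). Tubb2a and Tuba1a encode tubulins, and Pdyn encodes the precursor of dynorphin peptides. Tubb2a gave 2972, 2913 and 2133 TPM in WT against 1453, 1950 and 2119 TPM in S156A, with the same low libraries as the granins. The r with Vgf was taken with group means left in, so the difference between the groups, known for Vgf beforehand, enters it. It does not reflect the size of that difference: Neurl1a had means of 37.7 TPM in WT and 25.9 TPM in S156A. Both sets of r describe 6 points and were picked as the highest of many.

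Depth and counting set the remaining limits. Estimated depth was 3.154 to 4.14 aligned gigabases, and 18191 to 19270 annotated genes reached 1 TPM in a library. Genes on the opposite strand overlap Scg3 (Gm37871, 0.172 TPM), Pcsk2 (Pcsk2os1 and Pcsk2os2, 1.75 and 0.224 TPM) and Pcsk1n (Eras, 0 TPM), and the strand setting of the counting was among the things not given in the sources used here.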

How the data were processed

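RNA sequencing of 6 whole-brain libraries was used, 3 WT and 3 S156A, each of 3 pooled brains and made with a directional MGIEasy kit, per the labels' protocols. Reads were handled with StringTie 2.1.5, HISAT2 2.2.1 and Trim Galore 0.6.6, per the submitters' processing notes. The deposited TPM, FPKM and coverage (read depth per base) values are from gene abundance tables, per the file headers. The notes give a human build, but the rows hold mouse genes, of which 3.17% of 38186 matched by symbol start within 1000 bases of their GRCm38 position, so GRCm39 was inferred. Annotation release, strand setting and filters were not given in the sources used here. As the tables hold no counts, no count test and no counting interval was possible, and the depth in gigabases was estimated from the ratio of deposited coverage to FPKM.

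Rows of annotated genes were used, with 7 repeated identifiers summed; the 26631 to 28575 assembled rows per library served for an alternative only. Groups were compared on log2(TPM + 1) over genes with a mean of at least 1 TPM with limma 3.58.1 in R 4.3.3 (eBayes with trend, two-sided, Benjamini-Hochberg over all genes, called under 0.05), a step tested on simulated data. Fold changes on this scale understate those of low genes.

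The members, gene lists and tests were chosen with earlier results of these data known. All members were named, from each pathway list up to 4 genes of smallest p plus Pam, Furin, Cadps, Cadps2, Ptprn, Ptprn2 and Rest, from marker lists Gh and Acta1, and the 5 genes most like Vgf and most like the mean of the set. Some genes that the rule picked are left out and not reported here. Alternatives were FPKM, pseudocounts of 0.1 and 5, 2 other filters, 5 other scalings, 3 other variance models, a replicate block, and libraries left out. Promoter windows came from RefSeq.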

Additional observations from a re-analysis of the deposited data

How the results depend on the processing

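The 30 genes called by limma (16 higher, 14 lower) became 0 without a filter on low values (3364 at an unadjusted p under 0.05), 75 (17 higher, 58 lower) with a trimmed mean of M values, 52 (16 and 36) with quantile normalization, 45 (14 and 31) with FPKM, 16 without the eBayes trend, 309 with library weights, 6 without WT replicate 3 and S156A replicate 1, and 11 with scaling to the pan-neuronal markers, which was added after the data were seen. Leaving out 1 library gave 0 to 70 called genes, 70 without WT replicate 3, 2 without WT replicate 1, 1 without S156A replicate 1, and 0 without WT replicate 2, S156A replicate 2 or S156A replicate 3 (1535, 2260 and 2039 at an unadjusted p under 0.05). The cause was not tested. The count of called members, 1 as reported (Vgf), was 0 without a filter, without the trend, without both muscle-rich libraries and with the neuronal scaling, and 0 to 1 with 1 library left out, being 1 only without WT replicate 3. Vgf was called in 11 of 21 alternatives, and its log2 difference lay between -1.73 and -1.20 in all of them. The ranges of the others were -0.61 to -0.11 for Chga, -0.91 to -0.34 for Scg2, -0.77 to -0.19 for Pcsk1n and -0.70 to -0.16 for Pcsk1, while Chgb and Pcsk2 lay above 0 only with the neuronal scaling, which moves all genes up alike, Scg5 and Cpe with it and without S156A replicate 1 (0.08 and 0.03), and Scg3 lay between -0.11 and 0.40. The median of the 10 genes moved to -0.01 with the neuronal scaling, and that of the dense-core vesicle genes from -0.28 to 0.04. The median of the 10 genes minus that of all genes lay between -0.57 and -0.31 in the alternatives that covered all genes. Dividing a whole library by 1 factor leaves this difference nearly fixed.

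Libraries with the same replicate number did not deviate together (correlations of -0.55, 0.19 and -0.41), and WT replicate 3 was closest to S156A replicate 1 (0.65). Both of the latter held the most skeletal muscle transcripts, and the part of muscle RNA in these correlations was not tested. The correlations therefore cannot show whether the replicate numbers stand for a pairing. With the replicate number as a block 0 genes and 0 members were called by limma (1880 genes at an unadjusted p under 0.05).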
